A study of Mus musculus with 16 samples.

Results

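The zona pellucida and oocyte growth genes are a group of 10 listed genes, Zp1, Zp2, Zp3, Gdf9, Figla, Nobox, Sohlh1, Lhx8os, Mos and Oosp1. They were chosen by name, not by a measured value, though with earlier results of these data known. They were located in a RefSeq gene table of GRCm38. The table held 9 of the 10, among 21887 protein-coding genes on chromosomes 1 to 19, X and Y. Lhx8os is not analysed here. The study profiled H3K27ac and H3K4me3, 2 modifications of histone H3, in late 2-cell embryos of the mouse, taken 36 h after fertilization. Control embryos had been injected with water as zygotes, and mutant embryos with mRNA for a mutant Hdac1, a histone deacetylase. The labels do not say which mutation it carries, how many embryos went into a library or what strain was used, and the control received no mRNA. Chromatin was digested with micrococcal nuclease without crosslinking and immunoprecipitated. Each combination of mark and injection had 2 immunoprecipitation and 2 input libraries, but a single deposited peak list for both immunoprecipitations.

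These genes act in the growing oocyte, before the stage studied. The zona pellucida is the glycoprotein coat that the oocyte secretes around itself, and sperm bind to it at fertilization. Figla, Nobox and Sohlh1 encode transcription factors that establish the oocyte programme, and Figla switches on the zona genes through E-boxes, short motifs bound by basic helix-loop-helix proteins. Transcripts of such genes are maternal in origin and are largely degraded as the embryo starts its own transcription. H3K27ac marks active promoters and enhancers. H3K4me3 marks promoters, and in oocytes it also forms broad domains that are remodelled during cleavage.

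A gene was counted as marked when a peak overlapped a window of 2 kb on each side of either of its ends by at least 1 bp. The gene with 2 kb on each side is called its locus. The lists hold positions only, with no height, score or read count, so depth is unknown and no level can be given. A list does not tell apart a region marked in some embryos from one marked weakly in all. With 1 list per group no value has a replicate error and no test was made. Differences below are differences between lists. The control H3K27ac list held 77349 peaks (251.6 Mb) and the mutant list 122487 (245.9 Mb), and the H3K4me3 lists 86798 (257 Mb) and 85780 (279.4 Mb). Of 6 genes typical of the 2-cell stage, 5 or 6 were marked in every list. Their summed cover at the gene ends was 32540 bp in control against 19692 bp in mutant for H3K27ac, and 32813 against 18033 bp for H3K4me3. Of 6 cumulus cell genes, H3K27ac marked 3 in control and 5 in mutant, with a summed cover of 9083 and 8856 bp, of which Amhr2 alone had 8000 and 4521 bp. H3K4me3 marked 5 in each, with 16697 and 16041 bp. Of all protein-coding genes, H3K27ac marked 54.8% in control and 58.0% in mutant by the same rule, and H3K4me3 74.7% and 72.9%. Positions alone cannot say from which cells the peaks at the 2-cell and cumulus cell genes came.

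Start sites and promoter sequences, from RefSeq on GRCm38.p6, were given for 5 of the 9 genes. A sequence is printed below for each of 4 patterns of marks over the start site. Zp3 carried both marks in both conditions and Sohlh1 H3K4me3 alone in both. Nobox carried H3K27ac over its start site in mutant embryos alone, and Oosp1 in control embryos alone. Each runs 5′ to 3′ along the gene, from 250 bases before the start site to 50 from it on, with E-boxes (CANNTG, which reads the same on both strands) in capitals.
Zp3 (chr5:135979855-135980154, plus strand): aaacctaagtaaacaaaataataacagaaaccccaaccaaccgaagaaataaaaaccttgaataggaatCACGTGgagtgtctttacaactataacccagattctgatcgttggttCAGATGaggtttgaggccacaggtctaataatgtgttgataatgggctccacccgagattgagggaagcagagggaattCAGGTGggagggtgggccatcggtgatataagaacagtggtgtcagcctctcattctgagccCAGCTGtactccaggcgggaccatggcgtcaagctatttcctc
Nobox (chr6:43309505-43309804, minus strand): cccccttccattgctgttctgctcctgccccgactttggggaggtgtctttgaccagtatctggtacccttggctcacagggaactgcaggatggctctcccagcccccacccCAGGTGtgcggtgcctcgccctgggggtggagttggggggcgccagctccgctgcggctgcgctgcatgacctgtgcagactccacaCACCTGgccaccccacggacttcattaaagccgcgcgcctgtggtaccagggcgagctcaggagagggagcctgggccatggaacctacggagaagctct
Oosp1 (chr19:11691002-11691301, minus strand): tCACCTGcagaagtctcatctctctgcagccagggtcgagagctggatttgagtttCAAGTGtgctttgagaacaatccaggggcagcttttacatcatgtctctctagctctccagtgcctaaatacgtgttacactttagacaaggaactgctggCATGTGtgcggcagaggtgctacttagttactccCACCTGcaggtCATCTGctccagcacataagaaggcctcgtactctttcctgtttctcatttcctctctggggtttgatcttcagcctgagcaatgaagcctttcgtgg
Sohlh1 (chr2:25847199-25847498, minus strand): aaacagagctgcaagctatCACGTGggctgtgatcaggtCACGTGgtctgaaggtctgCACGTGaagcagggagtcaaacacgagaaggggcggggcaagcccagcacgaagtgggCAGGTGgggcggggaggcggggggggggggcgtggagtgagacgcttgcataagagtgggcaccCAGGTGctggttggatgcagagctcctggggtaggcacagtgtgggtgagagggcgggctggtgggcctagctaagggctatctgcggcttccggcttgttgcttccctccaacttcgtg

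E-boxes were found in all 5 promoters, with 2 at Nobox, 4 each at Zp3 and Figla, and 5 each at Oosp1 and Sohlh1. Of 32841 RefSeq promoters of this length, 72.3% held at least 1, 6.49% at least 4 and 2.09% at least 5. The E-box CACGTG stood 181 bases before the start site of Zp3. Sohlh1 had 3 copies of it, 231, 211 and 192 bases before its start site, a number reached by 0.0883% of promoters. The Nobox motif, TAATTG or TAATTA on either strand, was in none of the 5 and in 12.4% of all promoters. A match is a description of letters, not of binding. The ratio of observed to expected CpG ran from 0.275 at Oosp1 to 0.573 at Figla, with 0.411 at Nobox, 0.439 at Zp3 and 0.525 at Sohlh1, against a median of 0.384 over all promoters. With all promoters ranked by this ratio and cut into 3 classes of equal size, all 5 fell in the middle class, between 0.232 and 0.638. In that class, H3K4me3 overlapped 50.5% of promoters in control and 48.7% in mutant embryos, and H3K27ac 23.0% and 23.4%. H3K4me3 covered the whole window of 4 of the 5 genes in both conditions and none of it at Oosp1 in either.

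Across the group, H3K27ac marked 5 of 9 genes in control and 7 of 9 in mutant embryos. Over all protein-coding genes the shares were 54.8% and 58.0%. Zp3, Gdf9, Mos and Oosp1 were marked in both lists. Zp1 was marked in control alone, Zp2, Figla and Nobox in mutant alone, and Sohlh1 in neither. With windows of 5 kb, Zp1 and Zp2 were marked by H3K27ac in both lists, so that only Figla and Nobox differed between them. The share of all genes was not taken for windows of 5 kb. H3K4me3 marked 8 of 9 genes in control and all 9 in mutant embryos, against 74.7% and 72.9% of all genes. The exception in control was Oosp1. The count of cumulus cell genes with H3K27ac moved alongside, from 3 to 5 of 6, and its part in these counts was not tested. Over the gene bodies, H3K27ac peaks were found at 6 of 9 genes in each list, against 65.4% and 67.5% of all genes, and H3K4me3 peaks at 7 and 9, against 77.5% and 75.9%. Many peaks also reached the end window of another protein-coding gene. Peaks that reached no other gene end marked 4 genes in the control list and 6 in the mutant list for H3K27ac, against 34.6% and 42.8% of all genes. For H3K4me3 they marked 6 and 7 genes, against 52.9% and 49.8%. With so few genes, these shares describe the group and do not set it apart. The deposited lists are shown gene by gene in the map of peaks.

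**Figure D1:**
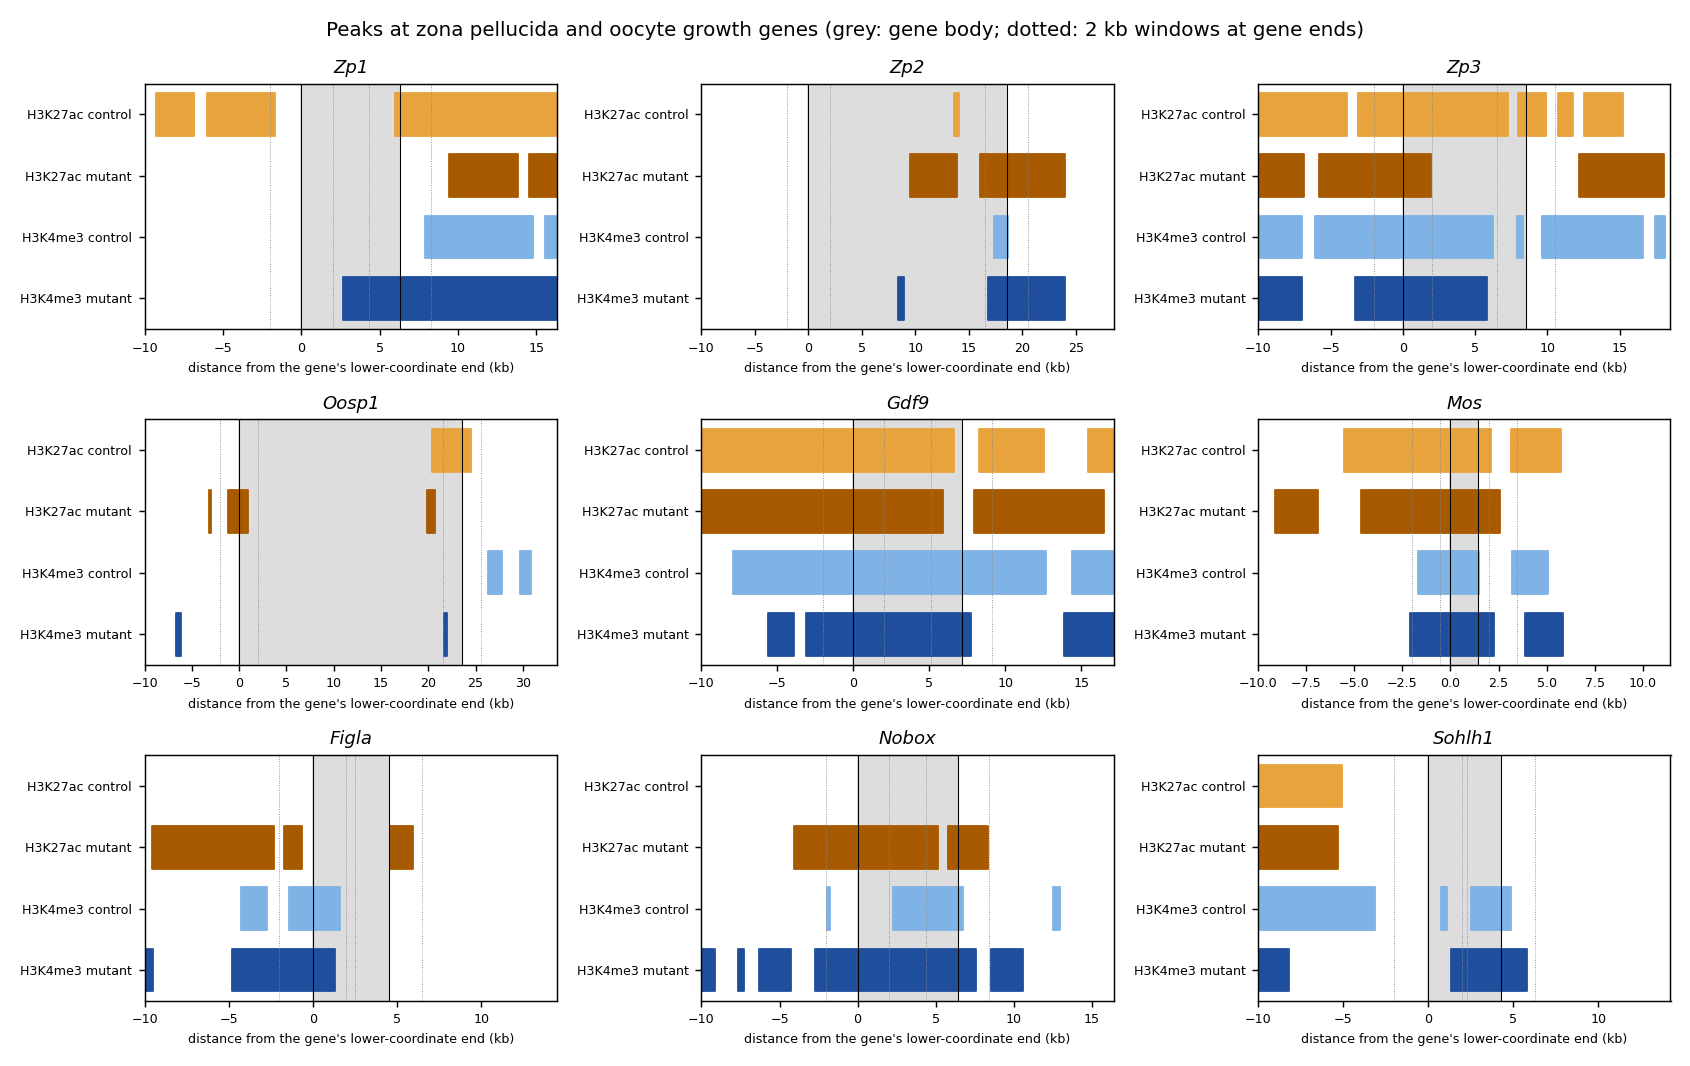
Peaks of the 4 lists (rows in each panel) over 9 genes and 10 kb on each side; the horizontal axis is the distance in kb from the gene end with the lower coordinate, grey marks the gene body and dotted lines the limits of the 2 kb windows, and the scale differs between panels. Figla and Nobox have no control H3K27ac peak in view, whereas Mos and Gdf9 have both marks over the gene in both conditions, although the control H3K4me3 peak at Gdf9 (20615 bp) is wider than the mutant one (10853 bp).

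The 3 zona pellucida genes did not share a pattern. Zp1 (chromosome 19, 10914296 to 10920601) encodes the protein that crosslinks zona filaments. In control embryos H3K27ac covered 2677 bp of its end windows with 2 peaks of 4359 and 10555 bp, and in mutant embryos none. H3K4me3 went the other way, with 384 bp in control and 4000 bp in the mutant list. Over the Zp1 body, the control list had no H3K4me3 peak and the mutant list covered 3639 bp. The single mutant H3K4me3 peak there was 14404 bp wide, against 6851 bp in control.

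All Zp1 peaks reached the end window of a neighbour. The upper H3K27ac peak and both H3K4me3 peaks extended to Ptgdr2, which lies 3917 bp away, and the lower H3K27ac peak to Prpf19, 4736 bp away. What marks Zp1 was thus at the edge of marked neighbours in control embryos, and the mutant H3K4me3 peak ran from Ptgdr2 into the gene. At Prpf19 the H3K27ac cover of the gene ends was 5969 bp in control and 0 in mutant embryos. At Ptgdr2 it was 4424 and 2808 bp.

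Zp2 (chromosome 7, 120126762 to 120145291) encodes the zona protein that is cleaved after fertilization to block further sperm. Its H3K27ac cover at the gene ends was 0 in control and 4000 bp in the mutant list, all at the end with the higher coordinate. The mutant peak (120142831 to 120150773) was 7943 bp wide, and a further mutant peak of 4440 bp lay within the body. The only control H3K27ac peak over the gene was 434 bp wide and lay in the body. H3K4me3 stood at the same end in both lists, with a peak of 1330 bp in control and of 7169 bp in the mutant list. All 1330 control H3K4me3 bases also lay under mutant H3K4me3. None of these peaks reached another protein-coding gene. In the mutant list 3713 bp of the Zp2 locus lay under both marks, and in the control list 0.

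Zp3 (chromosome 5, 135980105 to 135988624) encodes a structural protein of the zona long studied as a receptor for sperm. Both marks covered its start site in both conditions. H3K27ac covered 6718 bp of the end windows in control and 3943 bp in the mutant list. Over the body H3K27ac covered 7838 bp in control and 1943 bp in the mutant list, and H3K4me3 6660 and 5810 bp. Within the end windows most of the H3K27ac difference lay at the far end of the gene, with 2718 bp in control and 0 in mutant embryos. H3K4me3 covered 1280 bp and 0 there. Of the 1280 bp, 859 belonged to a peak that also reached the neighbour Dtx2. The mutant H3K27ac peak of 7772 bp and the widest control H3K4me3 peak, of 12299 bp, also reached Ssc4d, whereas the control H3K27ac peaks and the mutant H3K4me3 peak reached no other gene. At the start site end, H3K27ac covered 4000 and 3943 bp of the window and H3K4me3 4000 bp in both lists. Over the whole locus, the bases under both marks numbered 8811 in control and 3943 in mutant embryos. Zp3 was thus the zona gene most fully marked in the control lists, with 89.8% of its locus under H3K27ac and 76% under H3K4me3.

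Oosp1 (chromosome 19, 11667460 to 11691051) encodes a protein secreted by the oocyte. In control embryos 1 H3K27ac peak of 4045 bp (11687891 to 11691935) covered its start site. In mutant embryos the 2 H3K27ac peaks at Oosp1, of 2078 and 879 bp, lay at the opposite end and inside the body, and the nearest was 2871 bp from the start site. Only 290 bp of H3K27ac over the locus was common to both lists. The gene therefore counted as marked in both conditions although its start site was covered in control alone. No control H3K4me3 peak reached the end windows, and the mutant list had a single peak of 337 bp. The neighbours Oosp2, 6900 bp away, and Oosp3, 6003 bp away, are related genes. At the ends of Oosp3, H3K27ac covered 3237 bp and H3K4me3 1327 bp in control, and neither mark was found there in mutant embryos. Oosp2 had no H3K27ac in either list, and H3K4me3 in mutant embryos alone (520 bp).

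Gdf9 (chromosome 11, 53430774 to 53437904) encodes a growth factor of the TGF-beta family by which the oocyte directs its granulosa cells. It was broadly marked in all 4 lists. H3K27ac covered 6366 bp of its end windows in control and 5988 bp in the mutant list, and the widest peaks measured 17343 and 19946 bp. H3K4me3 covered 8000 and 6635 bp, with widest peaks of 20615 and 10853 bp. Of the H3K27ac bases over the locus, 8770 were common to both lists. The annotated body of Gdf9 overlaps that of Uqcrq, a gene for a subunit of the respiratory chain. The widest peaks of all 4 lists also reached Uqcrq, so the marks cannot be assigned to Gdf9 alone.

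Mos (chromosome 4, 3870658 to 3872105) encodes the kinase that drives the MAP kinase cascade during oocyte maturation and holds the egg in meiotic arrest. Both marks covered its body completely in both conditions. H3K27ac covered 4389 bp of the end windows in control and 4573 bp in the mutant list, with widest peaks of 7651 and 7248 bp. H3K4me3 covered 3403 and 4253 bp, with widest peaks of 3159 and 4348 bp. The nearest protein-coding genes were 26663 and 35002 bp away, and no peak at Mos reached another protein-coding gene. A second control H3K27ac peak of 2562 bp at the edge of its window had no mutant counterpart.

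In control embryos the transcription factor genes Figla, Nobox and Sohlh1 had H3K4me3 without H3K27ac at their ends, as did Zp2 and 23.8% of all genes. Of 7 other oocyte transcription factor genes, described below, 3 had this state and 4 had both marks. Nobox (chromosome 6, 43303674 to 43310072) encodes a homeobox factor. In control embryos it had no H3K27ac peak, and the nearest lay 21252 bp from its start site. In mutant embryos 2 peaks of 9219 and 2514 bp (43299626 to 43308844 and 43309487 to 43312000) covered 7286 bp of the end windows and 93.1% of the locus. The smaller of them held the start site and the whole promoter window printed above. H3K4me3 covered 2562 bp of the end windows in control and 7186 bp in the mutant list, and its widest peak measured 4435 and 10313 bp. Both marks together covered 0 bp of the Nobox locus in control and 8943 bp in the mutant list. None of these peaks reached another protein-coding gene, the nearest being Arhgef5 at 14353 bp.

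Figla (chromosome 6, 86016494 to 86020996) encodes a basic helix-loop-helix factor. The control list had no H3K27ac peak at it, with the nearest 20061 bp from the start site. The mutant list had peaks of 1105 and 1386 bp, which covered 2491 bp of the end windows but flanked the gene. The nearer stood 1324 bp from the start site, and the promoter window held no H3K27ac in either list. H3K4me3 covered that window in both conditions, with a peak of 3037 bp in control and 6119 bp in the mutant list. The added width lay mostly outside the windows, since their cover was 3037 and 3315 bp. Figla and Nobox thus differed in where the mutant H3K27ac peaks lay relative to the start site.

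Sohlh1 (chromosome 2, 25842995 to 25847248) encodes another basic helix-loop-helix factor and was the only located gene without H3K27ac at its ends in both lists. The nearest peaks lay 9355 bp from its start site in control and 9538 bp in the mutant list. H3K4me3 covered the start site in both conditions. The control list had peaks of 336 and 2340 bp and the mutant list 1 peak of 4491 bp. Its cover of the end windows was 2676 bp in control and 4237 bp in the mutant list. The cover of every gene is shown in the plot of bases within 2 kb of the gene ends.

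**Figure D2:**
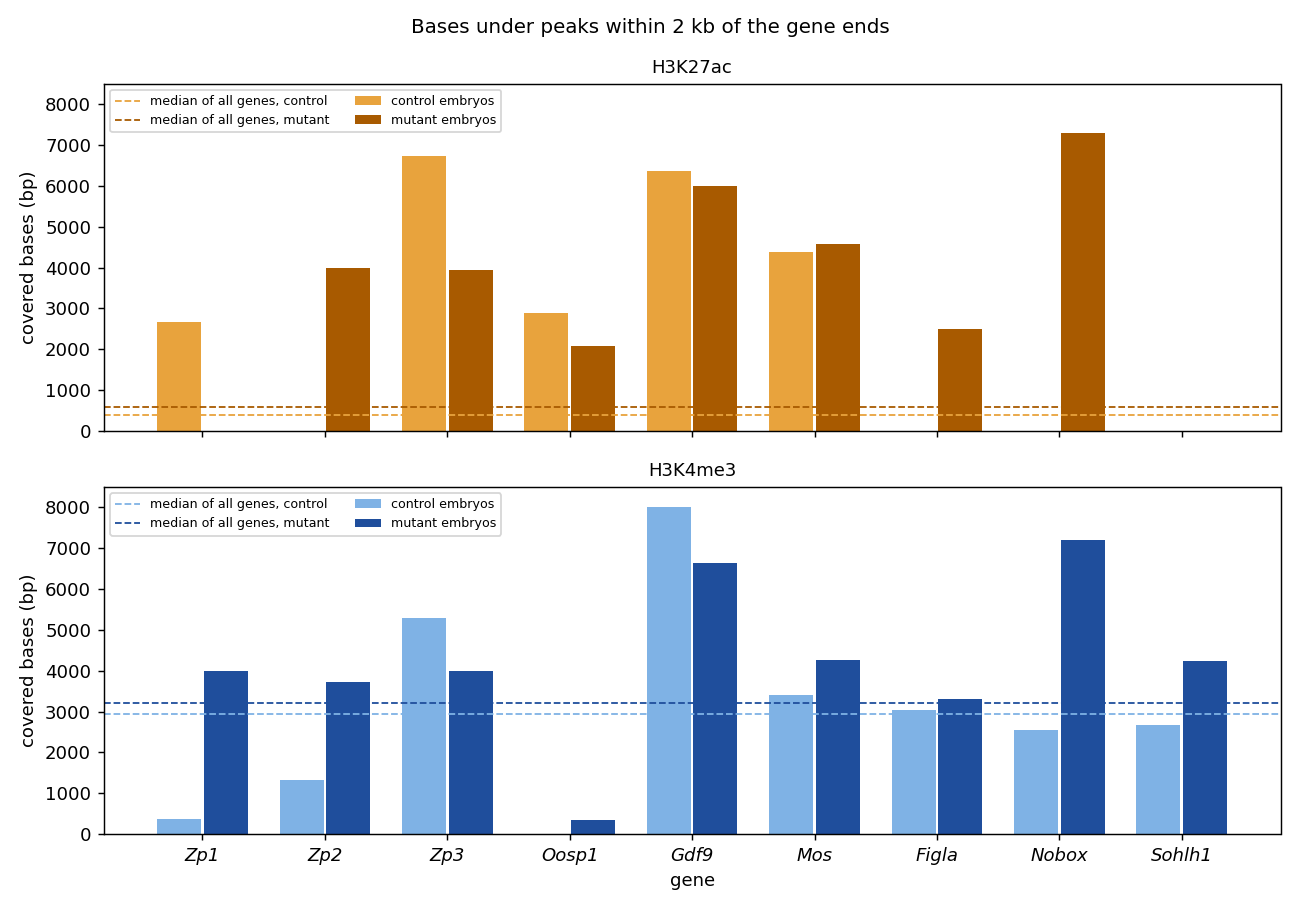
Bases under H3K27ac (top) and H3K4me3 (bottom) peaks within 2 kb of the ends of each gene, in bp, in control (light) and mutant (dark) embryos; dashed lines are the medians of all protein-coding genes, 403 and 581 bp for H3K27ac and 2938 and 3213 bp for H3K4me3. H3K27ac bars at Zp2, Figla and Nobox stand in mutant alone and at Zp1 in control alone, and the H3K4me3 bar is higher in mutant at 7 of 9 genes.

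Counted over the group, 1 of the 5 genes with H3K27ac at an end in control had none there in mutant embryos, against 22.7% of all such genes. Of the 4 genes without H3K27ac at an end in control, 3 were marked there in mutant embryos, against 34.6% of all such genes. With windows of 5 kb no gene of the group was marked in control alone, and those marked in mutant alone were Figla and Nobox. No share of all genes was taken for these wider windows. With windows of 2 kb, the mutant peak at 2 of those 4, Zp2 and Nobox, was wider than 5 kb, which held for 5.36% of all genes unmarked at their ends in control. H3K27ac peaks wider than 5 kb stood at 4 of the 9 genes in the control list and 5 in the mutant list, against 33.8% and 25.3% of all genes. Over the end windows, H3K27ac cover was higher in mutant at 4 of the 8 genes with any, against 45.5% of all such genes. Of the 4 genes marked in both lists, only Gdf9 had a wider widest H3K27ac peak in mutant embryos, against 32.8% of all genes marked in both. None of the 8 genes with H3K4me3 at an end in control lacked it there in mutant embryos, against 8.94% of all such genes, and the 1 unmarked gene, Oosp1, was marked, against 19.2%. H3K4me3 cover of the end windows was higher in mutant at 7 of 9 genes, against 52.3% of all genes with any. The widest peak was wider in mutant at 6 of the 8 genes marked in both lists, against 62.6% of all such genes. The exceptions were Zp3 and Gdf9. H3K4me3 peaks wider than 5 kb stood at 3 genes in control and 6 in mutant embryos, where the shares of all genes were 39.0% and 47.6%. The share of H3K4me3 genes that widened was thus in the direction of all genes.

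The summed cover of the 9 loci rested on few genes. H3K27ac covered 32280 bp of them in control and 41669 bp in the mutant list, a ratio of 1.29, against 0.894 over the loci of all protein-coding genes. Without Nobox and Zp2, the genes with the largest gains (9685 and 8467 bp), the sums were 31846 and 23083 bp, a ratio of 0.725. These 2 genes were picked by their gains, so a lower ratio was fixed in advance. Zp3, with the largest loss (-7295 bp), was kept. The H3K27ac sum was thus higher in mutant with these 2 genes and lower without them. Without Gdf9, whose widest peaks also reached Uqcrq, the ratio was 1.43 for H3K27ac and 1.59 for H3K4me3. H3K4me3 covered 36157 and 49459 bp, a ratio of 1.37, against 1.06 over all genes. Without Nobox and Zp1, the genes with the largest differences, it was 1.10.

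**Figure D3:**
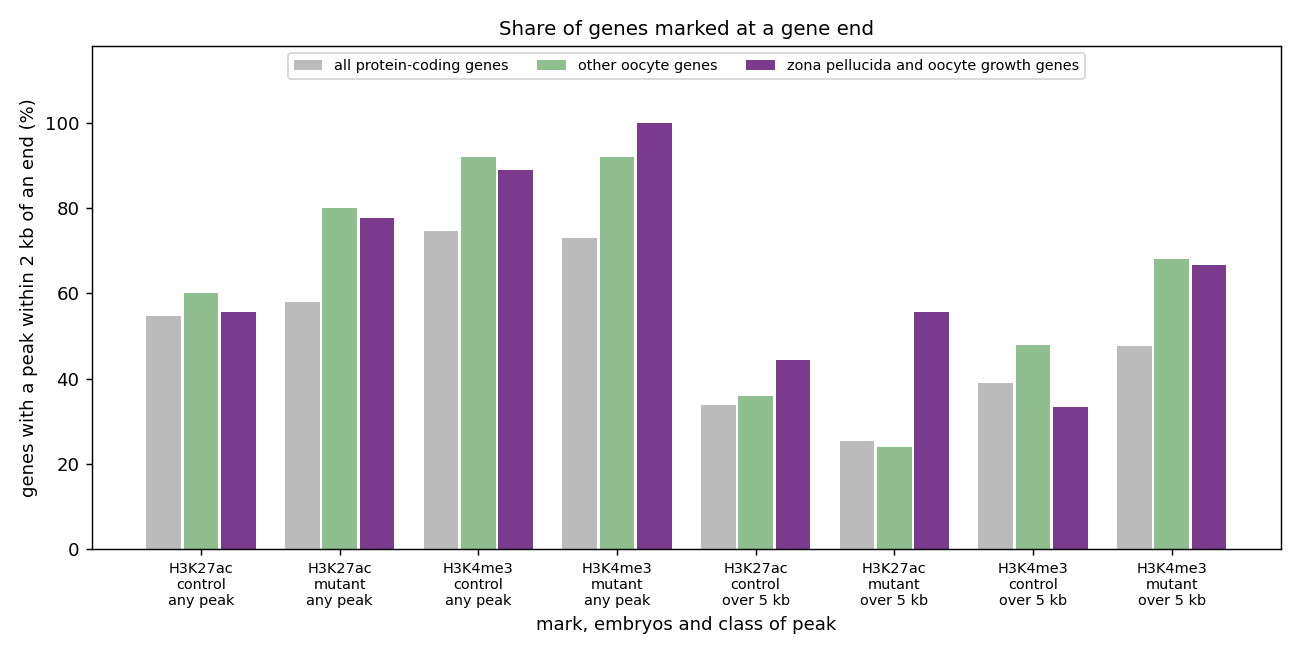
Share of genes (%) with a peak within 2 kb of an end, for any peak and for peaks wider than 5 kb, in each of the 4 lists; bars stand for all 21887 protein-coding genes, 25 other oocyte genes and the 9 zona pellucida and oocyte growth genes. Any H3K27ac peak was found at 5 and 7 of the 9 genes, where all genes had 54.8% and 58.0%.

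The marks also differed in how far they lay on the same bases. In control embryos both marks stood at the ends of 4 genes (Zp1, Zp3, Gdf9 and Mos), H3K4me3 alone at 4 and H3K27ac alone at Oosp1. The shares of all genes were 50.9%, 23.8% and 3.91%. In mutant embryos both marks stood at 7 genes and H3K4me3 alone at 2, Zp1 and Sohlh1, against 51.4% and 21.4% of all genes. Presence of both marks did not always mean shared bases. At Oosp1 in mutant embryos 0 bp lay under both, and at Figla 1105 bp. At Gdf9 it was 9497 bp in control and 7915 bp in the mutant list, and at Mos 3403 and 4253 bp.

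**Figure D4:**
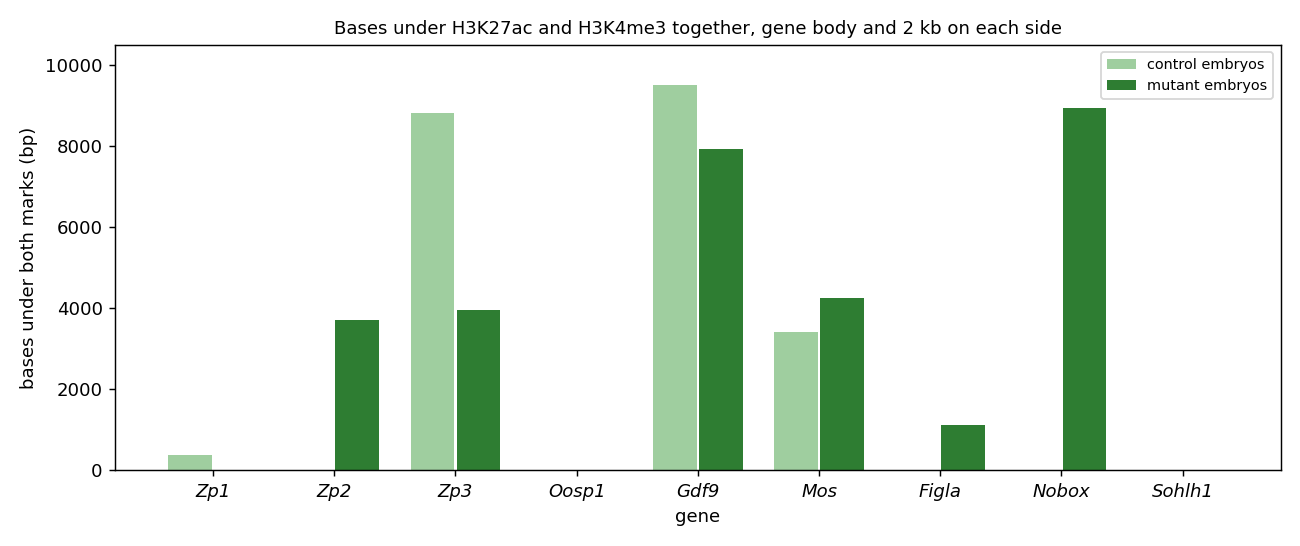
Bases of each locus (gene body and 2 kb on each side) under H3K27ac and H3K4me3 together, in bp, in control (light) and mutant (dark) embryos. Zp2, Figla and Nobox have such bases in mutant alone, Zp1 (384 bp) in control alone, and Oosp1 and Sohlh1 in neither.

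Other genes of the oocyte programme were taken from a list of 25, all of which were found in the gene table. H3K27ac marked 15 of them in control and 20 in mutant embryos, where all genes had 54.8% and 58.0%. H3K4me3 marked 23 in each, where all genes had 74.7% and 72.9%. The measures of H3K27ac did not all go one way. Cover of the end windows was higher in mutant at 13 of the 21 genes with any, against 45.5% of all such genes, and the widest peak was wider at 8 of the 14 marked in both lists, against 32.8%. Peaks over the body were found at 17 and 23 genes, against 65.4% and 67.5% of all genes. Peaks wider than 5 kb stood at the ends of 9 of the 25 genes in control and 6 in mutant, close to the 33.8% and 25.3% of all genes. The cover summed over the 25 loci was 339482 and 285825 bp, of which Nr6a1 alone had 143516 and 77875 bp. The sum was lower in mutant, as over the loci of all genes (ratio 0.894), but without Nr6a1 it was higher in mutant. Of the 10 without H3K27ac at a gene end in control, 6 had it there in mutant embryos, against the 34.6% of all genes given above. Bmp15, the partner of Gdf9 on the X chromosome, had no H3K27ac in control and 1 peak of 1329 bp in the mutant list, which covered its promoter window. It had no H3K4me3 in either list. Kit, the receptor through which granulosa cells act on the oocyte, had 0 and 1528 bp of H3K27ac at its ends. Sohlh2, the partner of Sohlh1, had 0 and 1343 bp, and the nuclear receptor gene Nr6a1 0 and 3293 bp. Over its whole locus, however, Nr6a1 had 143516 bp of H3K27ac in control and 77875 bp in the mutant list. Kit and Sohlh2 also had H3K27ac in the body in control, of 1280 and 821 bp. Fbxo43, which keeps the egg in arrest together with the Mos pathway, had 0 and 2926 bp at its ends, and Zar1, an RNA-binding protein of the early embryo, 0 and 338 bp. Nr6a1 was the only one of these 6 with a mutant H3K27ac peak wider than 5 kb at a gene end. Of the 15 with H3K27ac at a gene end in control, only Oosp3 had none there in mutant embryos, where 881 bp lay in its body; of all genes marked in control, 22.7% had none. By role, and against the same shares of all genes, H3K27ac marked 2 of 6 oocyte surface genes in control and 3 in mutant, and 4 and 6 of 7 transcription factor genes. It marked 6 and 7 of 7 genes of the Mos pathway and meiotic arrest, and 3 and 4 of 5 genes for maternal RNA and germ cell factors. Lhx8, a LIM homeobox factor that acts with the other oocyte factors, had no H3K27ac at its ends in either list and an H3K4me3 peak in both, of 6873 bp in control and 8305 bp in the mutant list. A mutant H3K27ac peak covered 473 bp of its body, where Sohlh1 had none. Gja4, a gap junction protein of the oocyte, and Dazl, an RNA-binding protein of germ cells, likewise had H3K4me3 without H3K27ac at their ends in both lists.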

How the data were processed

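H3K27ac and H3K4me3 were profiled by ULI-NChIP-seq, chromatin immunoprecipitation without crosslinking from few cells, in 16 libraries of 8 groups. The authors deposited 1 peak list per immunoprecipitation group, with chromosome, start and end. Per the submitters' processing notes, CASAVA, Trimmomatic, Bowtie2, SAMtools, Picard, MACS2 and deepTools were used on mm10 (GRCm38). Calling settings, and whether replicates were pooled, are not given in the sources used here, and pooling or joining rules change the number and width of peaks.

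Peak positions, counted from 0 in the lists, are printed counted from 1. Chromosomes 1 to 19, X and Y were used. Gene positions and promoters came from RefSeq tables of GRCm38.p6, which give no strand for genes without a promoter. Interval code was written in Python 3.11.15, with matplotlib 3.10.9, and tested on simulated peaks. All 9 located genes and 25 other oocyte genes are described, and values are given for those whose state differed between conditions. Lhx8, Gja4 and Dazl were given besides, chosen after their values were seen. The members and lists were chosen with earlier results of these data known.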

Additional observations from a re-analysis of the deposited data

How the results depend on the processing

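No paired analysis was possible because 1 list stands for the libraries of a group, and for the same reason no replicate was left out. The planned stricter threshold was replaced by the wider 50% of each list, since the lists hold no score. Depth is unknown, so an absent peak is no measure of an absent mark. The same genes were marked by H3K27ac with windows of 1 kb, overlaps of at least 500 bp, the wider 50%, lists of equal size, peaks less than 1 kb apart merged, and common limits (peaks less than 750 bp apart merged, peaks under 200 bp dropped). Windows of 5 kb added Zp2 in control and Zp1 in mutant embryos. For H3K4me3, Zp1 in control and Oosp1 in mutant embryos were unmarked with windows of 1 kb or overlaps of 500 bp, and Zp2 in control and Oosp1 in mutant embryos in the wider 50%; windows of 5 kb added Oosp1 in control. Peaks that reached no other gene end, an alternative chosen after seeing the data, marked 4 and 6 genes for H3K27ac (34.6% and 42.8% of all genes) and 6 and 7 for H3K4me3 (52.9% and 49.8%). Windows at the start site alone, given for 5 genes, marked 2 in control and 3 in mutant embryos for H3K27ac, and 4 and 5 for H3K4me3. No share of all genes was taken for these windows or for those of 5 kb. Windows at both ends of the same 5 genes marked 2 and 4, and 4 and 5; the difference was Oosp1, whose mutant H3K27ac peak at a gene end lay at the end away from the start site.

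The summed H3K27ac difference over the loci, mutant minus control, was 9389 bp as deposited, 6894 with 1 kb, 10532 with 5 kb, 10442 with overlaps of 500 bp, 8944 in the wider 50%, 9018 after merging and 9618 under common limits. For H3K4me3 it was 13302 bp, and 11385, 9686, 14592, 14744 and 14116 bp with the first 5 of these alternatives. Single genes changed sign in 4 cases: with 1 kb, H3K4me3 at Figla came to -305 bp, and with 5 kb H3K4me3 at Sohlh1 to -42 bp, at Oosp1 to -1101 bp and H3K27ac at Mos to -2420 bp.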

Other observations

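Several protein-coding neighbours of these genes had states of their own. Tmem159, 5774 bp from Zp2, had 4000 bp of H3K27ac at its ends in control and 0 in mutant embryos, the opposite of Zp2. Arhgef5, 14353 bp from Nobox, had 708 and 0 bp of H3K27ac and 2143 and 2931 bp of H3K4me3 at its ends. Add2, 7684 bp from Figla, had neither mark at its ends in either list. Dtx2, 6175 bp from Zp3, had 3956 bp of H3K4me3 at its ends in control and 0 in mutant embryos, while its H3K27ac was 2546 and 4000 bp. Rps20, 35002 bp from Mos, had 8000 bp of H3K27ac at its ends in control and 3102 bp in mutant embryos, whereas Mos itself had 4389 and 4573 bp. These are values of single lists without a replicate error.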
